A study of Mus musculus with 7 samples.

Results

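The endogenous loci of *Pou5f1*, *Sox2*, *Klf4* and *Myc*, the genes of the 4 factors used to reprogram fibroblasts to pluripotency, were examined for called ATAC-seq peaks. ATAC-seq maps open chromatin by the insertion of a transposase into accessible DNA. Each locus was taken from 100 kb upstream to 100 kb downstream of the gene in mm10, so that distal enhancers were included, and any peak reaching into this window by 1 bp or more was kept. Touching or overlapping peaks of all libraries were merged into regions, which gave 58 regions at the 4 loci of 104346 in the genome. A region is called open in a library that has a called peak there, and a missing peak means only that enrichment stayed under the threshold at an unstated depth. *Pou5f1* had 22 regions, *Sox2* had 8, *Klf4* had 15 and *Myc* had 13.

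The series holds 7 ATAC-seq libraries, 1 per time-point. Mouse embryonic fibroblasts (MEFs), prepared from mid-gestation embryos, were collected untreated on day 0 and after 1, 2, 3, 6 and 9 days of doxycycline at 2 µg/ml. All MEF-derived libraries, day 0 included, come from crossed mice with 2 alleles. One is the Hoch allele of *Col1a1* on a B6;129S4 background, a doxycycline-responsive (tetO) cassette that carries all 4 factors (OKSM), and the other is the Jae allele of Gt(ROSA)26Sor on a B6.Cg background, which expresses the rtTA*M2 activator. The last library is from untreated Bruce-4 embryonic stem cells (ESCs), 1 line, for which the labels repeat the MEF genotype. The cells of a doxycycline day were not sorted, so that cells at different stages of reprogramming share a library. The medium was changed from MEF to ESC medium when the first colonies appeared, which falls between days 6 and 9. With 1 library per time-point there was no replicate, no test between libraries was possible, and values are given as counts of called peaks, with exact (Clopper-Pearson) 95% intervals on shares that cover counting error only.

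Oct4, the product of *Pou5f1*, and Sox2 bind DNA together at many enhancers of pluripotent cells, and both genes are silent in fibroblasts. Klf4, a zinc finger protein, and Myc, a basic helix-loop-helix protein that binds E-boxes with Max, are also expressed in fibroblasts and other dividing cells. In ESCs all 4 genes depend on enhancers that can lie far from the gene, and the factors bind at their own enhancers. One property of the system limits what can be read over the genes themselves: the cassette carries the coding sequences of all 4 members, and a read from it maps to the matching endogenous coding exon. An open coding exon of the endogenous gene and reads from the cassette cannot be told apart in these peak lists.

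The mm10 sequences of 7 regions follow, read from the plus strand, as examples chosen after their values were seen. They are a *Pou5f1* upstream element at chr17:35503899-35504191 that the study cloned, the ESC region 33.6 kb downstream of the *Pou5f1* start at chr17:35539500-35539700, ESC regions 94.9 kb (chr3:34745194-34745493) and 107.5 kb (chr3:34757759-34758058) downstream of the *Sox2* start, an ESC region 54.9 kb downstream of the *Klf4* start (chr4:55477449-55477748), and regions 58.6 kb (chr15:62043797-62044096) and 94.1 kb (chr15:62079381-62079680) downstream of the *Myc* start, the first with no peak and the second with a peak in ESCs. Except for the *Pou5f1* elements, the central 300 bp are shown. In the *Pou5f1*, *Sox2* and *Klf4* sequences capitals mark the octamer ATGCAAAT, the composite Oct-Sox motif (the Sox motif CNTTGTN followed directly by ATGC), the Klf motif GGGNGTGG and the Esrrb motif CAAGGTCA, and in the *Myc* sequences they mark the AP-1 motif TGANTCA and the E-box CACGTG, each searched on both strands.
Pou5f1 cloned upstream element: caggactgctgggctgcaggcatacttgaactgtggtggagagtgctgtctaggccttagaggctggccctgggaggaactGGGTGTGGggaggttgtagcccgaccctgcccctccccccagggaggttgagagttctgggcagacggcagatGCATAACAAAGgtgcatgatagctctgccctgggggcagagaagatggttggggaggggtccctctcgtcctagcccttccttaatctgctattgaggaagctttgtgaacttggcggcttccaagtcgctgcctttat
Pou5f1 33.6 kb downstream: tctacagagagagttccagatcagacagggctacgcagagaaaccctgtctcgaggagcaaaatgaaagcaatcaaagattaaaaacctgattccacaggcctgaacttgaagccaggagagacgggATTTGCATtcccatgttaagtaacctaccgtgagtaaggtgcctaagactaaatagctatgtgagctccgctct
Sox2 94.9 kb downstream: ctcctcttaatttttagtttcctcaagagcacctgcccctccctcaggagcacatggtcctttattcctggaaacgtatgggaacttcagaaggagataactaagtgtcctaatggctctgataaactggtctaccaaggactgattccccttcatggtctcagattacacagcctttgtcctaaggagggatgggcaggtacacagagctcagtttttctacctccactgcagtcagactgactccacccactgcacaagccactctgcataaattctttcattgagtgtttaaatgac
Sox2 107.5 kb downstream: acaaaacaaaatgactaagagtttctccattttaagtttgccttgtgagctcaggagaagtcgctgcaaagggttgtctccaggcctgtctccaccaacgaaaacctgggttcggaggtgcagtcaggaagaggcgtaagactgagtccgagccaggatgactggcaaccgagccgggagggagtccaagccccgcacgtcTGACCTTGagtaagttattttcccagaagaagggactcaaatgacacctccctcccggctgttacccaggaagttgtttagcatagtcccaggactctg
Klf4 54.9 kb downstream: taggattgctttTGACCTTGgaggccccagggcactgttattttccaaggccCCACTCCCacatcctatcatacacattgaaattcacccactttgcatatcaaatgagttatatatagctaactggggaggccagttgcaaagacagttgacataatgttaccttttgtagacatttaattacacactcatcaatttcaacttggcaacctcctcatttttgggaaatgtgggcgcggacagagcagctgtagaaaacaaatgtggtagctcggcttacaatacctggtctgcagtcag
Myc 58.6 kb downstream: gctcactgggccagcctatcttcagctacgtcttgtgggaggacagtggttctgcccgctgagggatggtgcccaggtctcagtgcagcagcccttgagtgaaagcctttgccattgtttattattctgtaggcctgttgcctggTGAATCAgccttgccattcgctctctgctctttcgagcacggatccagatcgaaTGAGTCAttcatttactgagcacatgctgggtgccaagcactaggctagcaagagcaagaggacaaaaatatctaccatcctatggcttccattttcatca
Myc 94.1 kb downstream: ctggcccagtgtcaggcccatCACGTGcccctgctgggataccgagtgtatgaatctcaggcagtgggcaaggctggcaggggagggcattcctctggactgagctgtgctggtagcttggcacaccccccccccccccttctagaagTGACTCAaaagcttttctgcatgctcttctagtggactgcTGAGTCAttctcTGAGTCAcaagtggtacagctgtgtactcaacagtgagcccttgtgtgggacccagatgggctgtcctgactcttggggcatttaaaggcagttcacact

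The regions of the 4 loci were classed by their peaks on day 0 and in ESCs. Of the 58 regions, 4 (6.90%, 1.91–16.7%) had a peak in both, 26 (44.8%, 31.7–58.5%) on day 0 and not in ESCs, 11 (19.0%, 9.87–31.4%) in ESCs and not on day 0, and 17 (29.3%, 18.1–42.7%) on doxycycline days alone. Over all merged regions the same classes held 12.1%, 44.3%, 12.9% and 30.7%. The interval of each class at the 4 loci included its genome-wide value.

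**Figure D1:**
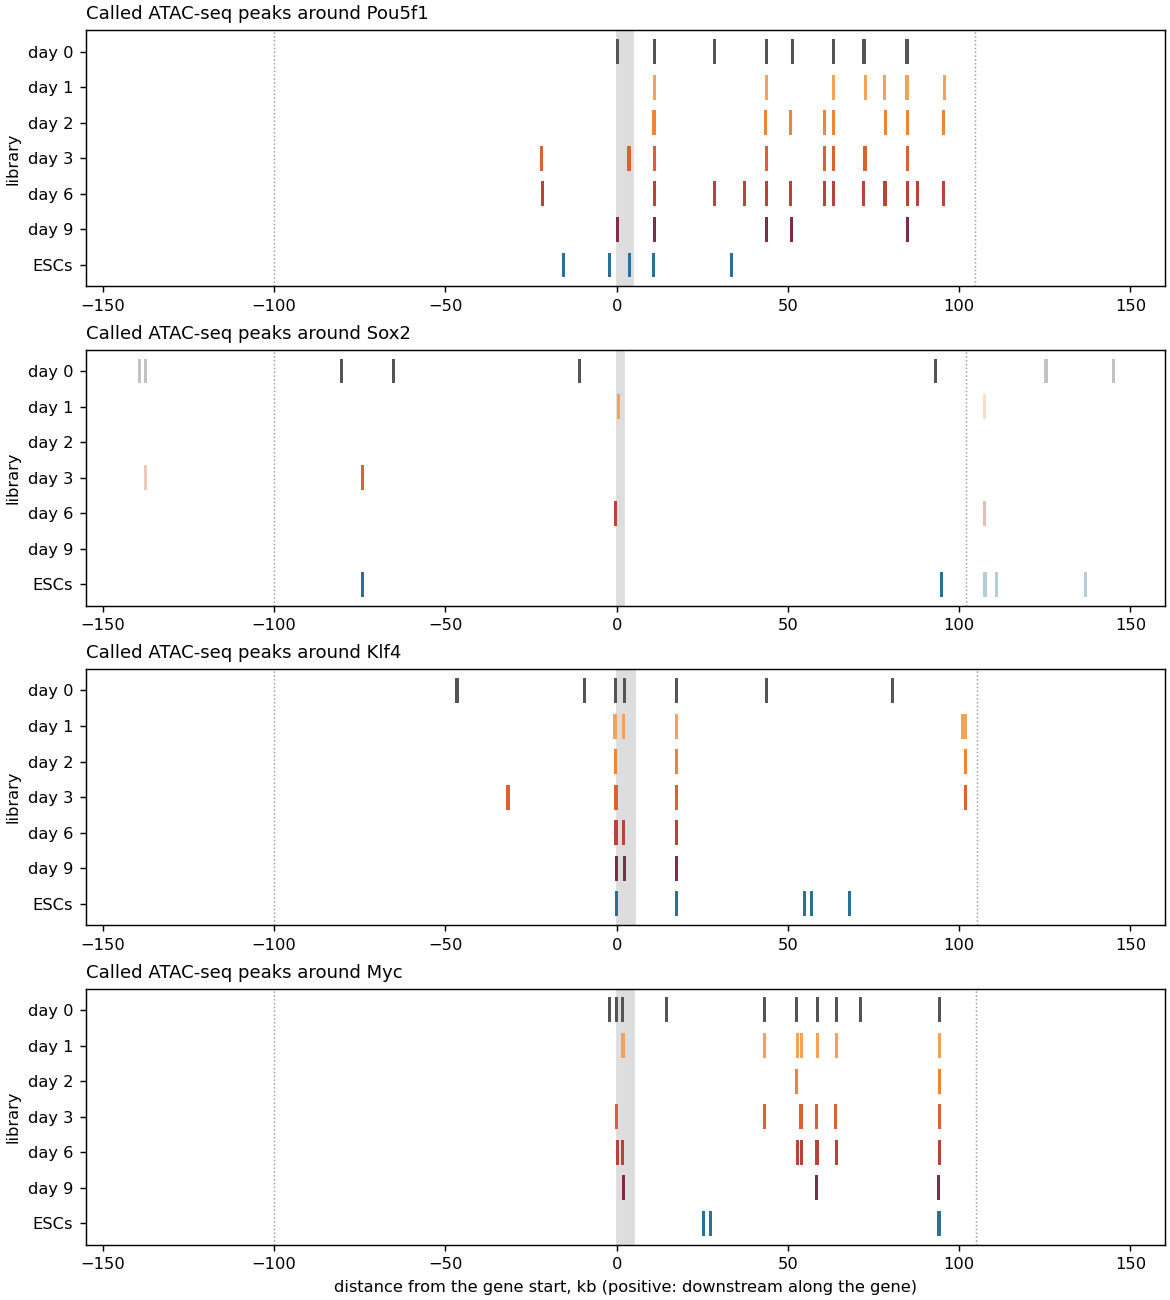
Called peaks around each gene in the 7 libraries, by distance from the gene start in kb, with the gene in grey and dotted lines at the edges of the window. Bars narrower than 0.9 kb were drawn 0.9 kb wide, and pale bars are peaks outside the *Sox2* window. Peaks in ESCs and peaks on day 0 fall at different positions, with shared columns at 11.0 kb for *Pou5f1*, at the start and 17.5 kb for *Klf4*, and at 94.1 kb for *Myc*.

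The 4 regions with a peak in both day 0 and ESCs had a peak in all 7 libraries, as did 80.8% of such regions in the genome. Regions open in all 7 libraries made up 6.90% of the 58 and 9.75% of all merged regions. They lay at the *Klf4* promoter (chr4:55532242-55533269), 17.5 kb downstream of the *Klf4* start (chr4:55514585-55515326), 11.0 kb downstream of the *Pou5f1* start (chr17:35516565-35517465) and 94.1 kb downstream of the *Myc* start (chr15:62079164-62079898). *Sox2* had none. The region near *Pou5f1* lies over the starts of *Tcf19* and *Cchcr1*, 10.8 and 11.1 kb downstream, so that it is the promoter of its neighbours.

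Peak numbers differed between libraries, at the 4 loci and in the whole genome. The 4 loci held 30 (day 0), 22 (day 1), 13 (day 2), 21 (day 3), 26 (day 6), 11 (day 9) and 15 (ESCs) peaks, and the libraries as a whole held between 27074 (ESCs) and 61241 (day 0) peaks, with 33174 on day 2 and 33007 on day 9. On day 0, 51.7% (38.2–65.0%) of the regions had a peak against 56.4% of all merged regions, day 1 had 34.5% against 41.1%, day 2 had 22.4% against 29.5%, day 3 had 36.2% against 43.3%, day 6 had 41.4% against 40.2%, day 9 had 19.0% against 29.7%, and ESCs had 25.9% (15.3–39.0%) against 25.0%. A peak in 1 library alone was found at 31 regions (53.4%) against 50.7%, on day 0 alone at 12 (20.7%) against 23.9%, and in ESCs alone at 9 (15.5%) against 9.76%. In each of the 7 libraries the interval for the 4 loci included the share of all regions.

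**Figure D2:**
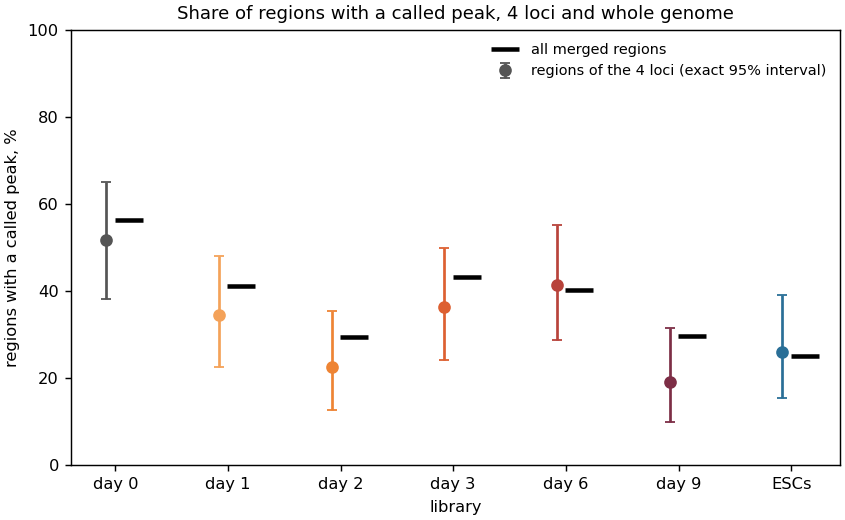
Percent of regions with a called peak in each library, as points with exact 95% intervals for the 58 regions of the 4 loci and as black bars for all 104346 merged regions. Each interval includes the black bar. The lowest shares are on days 2 and 9 for the 58 regions and in ESCs for all regions.

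**Figure D3:**
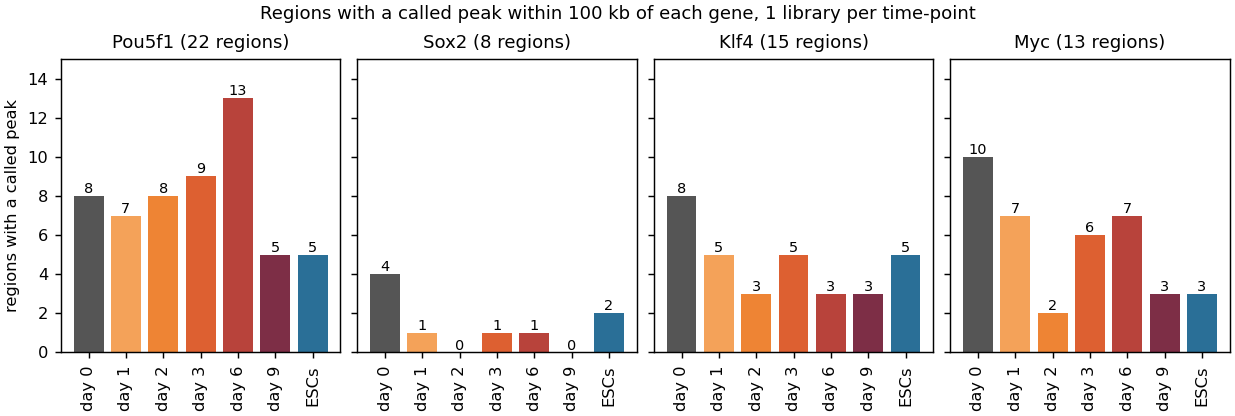
Number of regions with a called peak at each locus in the 7 libraries, 1 library per bar. *Pou5f1* has its highest bar on day 6 (13 regions), *Sox2*, *Klf4* and *Myc* on day 0 (4, 8 and 10), and *Sox2* has none on days 2 and 9.

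*Pou5f1* (ENSMUSG00000024406.16, chr17:35506018-35510772, plus strand) lies in a gene-dense stretch, with 9 other protein-coding genes in its window. Oct4 is the POU-domain factor without which the pluripotent state is lost. The open regions numbered 8 (day 0), 7 (day 1), 8 (day 2), 9 (day 3), 13 (day 6), 5 (day 9) and 5 (ESCs). The highest number was on day 6 and the lowest on day 9 and in ESCs. Only 4 of the 22 regions lay upstream, none farther than 21.9 kb, and 16 lay downstream of the gene. The remaining upstream part of the window, which holds the starts of *H2-Q6*, *H2-Q7* and *H2-Q10*, had no peak in any of the 7 libraries.

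In ESCs, 4 of the 5 open regions of the *Pou5f1* locus had no peak on day 0, as did 51.7% of the 26055 ESC regions in the genome, and 13.2% of protein-coding genes had 4 or more such regions in their window. A peak of 423 bp at chr17:35503828-35504250, 2.0 kb upstream of the start, covered the cloned element printed above, which spans 293 bp and ends 1827 bp from the start. The upstream distal enhancer of *Pou5f1*, which drives the gene in ESCs, is known from this stretch. The window around its middle held the composite Oct-Sox motif, read as GCATAACAAAG on the plus strand at chr17:35504053-35504063, and the Klf motif GGGTGTGG at chr17:35503980-35503987. No other region of the 4 loci held the composite motif in its central 300 bp. The motif stands in 1.04% of the 300-bp windows around all ESC peaks and in 0.168% of those around all day 0 peaks. Around all regions open in ESCs and not on day 0 the share was 2.00%.

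The 3 further ESC regions at *Pou5f1* were narrow. A 200-bp peak lay 15.5 kb upstream (chr17:35490369-35490568) and a 201-bp peak 33.6 kb downstream (chr17:35539500-35539700), both in ESCs alone. The downstream one holds an octamer, as ATTTGCAT on the plus strand. This motif is present in 3.17% of the windows around ESC peaks and 1.52% of those around day 0 peaks. Around regions open in ESCs and not on day 0 the octamer share was 5.14%. Inside the gene, at chr17:35509524-35509862, a 230-bp peak was called on day 3 and a 200-bp peak in ESCs, where the antisense transcript *Gm19553* overlaps *Pou5f1*. The day 3 peak reached 15 bp into a coding exon. Of the 4 ESC regions without a day 0 peak, this was the only one with a peak on a doxycycline day.

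The first exon of *Pou5f1* was open on day 0 (561 bp, chr17:35506035-35506595) and on day 9 (492 bp, chr17:35506013-35506504) and had no called peak on days 1, 2, 3 and 6 or in ESCs. Coding sequence made up 68.4% of the day 0 peak and 78.0% of the day 9 peak, so that reads from the cassette cannot be told apart here. Both peaks ran past the coding part of the exon on each side.

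Downstream of *Pou5f1*, the MEF-derived libraries shared regions that had no peak in ESCs. The widest, 84.8 kb downstream (chr17:35590306-35591377), had peaks of 1070 (day 0), 954 (day 1), 700 (day 2), 924 (day 3), 722 (day 6) and 614 bp (day 9). A region 43.8 kb downstream (chr17:35549453-35550139) was also open in these 6 libraries, with 560, 523, 215, 649, 535 and 626 bp in the same order. Each was thus open in every MEF-derived library and not in ESCs. The other day 0 regions without an ESC peak lay 28.7 kb (also open on day 6), 51.4 kb (day 9), 63.3 kb (days 1, 2, 3 and 6) and 72.2 kb (days 3 and 6) downstream. *Pou5f1* had 10 regions open on doxycycline days alone, and 6.31% of 21951 protein-coding genes had as many or more in the same window, where the median was 4. The locus also had more regions than most in all, since 22.9% of genes had 22 or more. The 10 regions became 3 with peaks of at least 300 bp, 3 with the same number of widest peaks in every library, 6 with peaks within 300 bp merged and 4 with 50 kb on each side, and with peaks of at least 300 bp 46.5% of genes had at least as many regions in all as *Pou5f1*.

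Of these 10 regions, 2 (20.0%) were open on 3 of the 5 doxycycline days, while 26.7% of such regions in the genome were open on 3 or more. At chr17:35566481-35566944, 60.7 kb downstream and near the start of *2300002M23Rik*, peaks of 262 (day 2), 200 (day 3) and 314 bp (day 6) were called. At chr17:35584238-35584729, 78.5 kb downstream, day 1 had 200 bp, day 2 had 466 bp, and day 6 had 2 peaks of 205 and 215 bp. The other 8 were open on 1 or 2 days, between 21.9 kb upstream and 95.8 kb downstream, and spanned 200 to 464 bp. None of the 10 was open on day 9 (0%, 0–30.8%), against 27.1% of such regions in the genome, which lies within this interval.

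*Sox2* (ENSMUSG00000074637.7, chr3:34650405-34652461, plus strand) encodes the HMG-box partner of Oct4, and lies within the long noncoding gene *Sox2ot* with no other protein-coding gene in its window. It had the fewest regions of the 4 members, and 77.8% of protein-coding genes had as many or more. The locus had 4 (day 0), 1 (day 1), 0 (day 2), 1 (day 3), 1 (day 6), 0 (day 9) and 2 (ESCs) peaks. On day 2 and day 9 the nearest called peak to the start lay 234712 and 234655 bp downstream.

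No peak lay within 1000 bp of the *Sox2* start on day 0 or in ESCs. Day 6 had a 214-bp peak just upstream (chr3:34649996-34650209), and day 1 had a 253-bp peak (chr3:34650893-34651145) wholly inside the coding exon, where cassette reads cannot be told apart. All 4 day 0 regions were open in that library alone, with widths of 200 to 386 bp, at 80.4, 65.2 and 10.9 kb upstream and 93.2 kb downstream. In the genome, 24930 of the 58856 day 0 regions were open on day 0 alone.

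The 2 ESC regions of *Sox2* lay far from the gene. One, 74.2 kb upstream in *Sox2ot* (chr3:34575978-34576346), had a peak of 320 bp on day 3 and of 257 bp in ESCs. The other, 94.9 kb downstream (chr3:34745045-34745642), was 598 bp wide and open in ESCs alone. The *Sox2* control region, the distal enhancer on which the gene depends in ESCs, is known from more than 100 kb downstream and so begins beyond the window.

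Just past the downstream edge of the *Sox2* window, ESC peaks continued. At 107.5 kb (chr3:34757755-34758063) peaks of 254 (day 1), 262 (day 6) and 205 bp (ESCs) were called, and at 111.0 kb (chr3:34761215-34761686) ESCs had a 472-bp peak of their own. With 150 kb on each side, *Sox2* had 15 regions, of which 5 were open in ESCs and 8 on day 0. No region was shared by the 2 libraries, and 51.7% of ESC regions in the genome had no day 0 peak. The 107.5 kb region was the only one of these 5 ESC regions with a peak on days 1 and 6. It holds the Esrrb motif as TGACCTTG on the plus strand, present in 2.97% of windows around ESC peaks and 1.54% of those around day 0 peaks. Around regions open in ESCs and not on day 0 the Esrrb share was 4.77%. The 94.9 and 111.0 kb regions held neither the octamer, the composite motif nor the Esrrb motif in their central 300 bp.

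*Klf4* (ENSMUSG00000003032.8, chr4:55527143-55532466, minus strand) was the only member whose promoter was open in all libraries. Klf4 keeps ESCs in the naive state and also acts in epithelial and other differentiated cells. Over the start, peaks of 955 (day 0), 569 (day 2), 612 (day 3), 658 (day 6), 300 (day 9) and 673 bp (ESCs) were called, and day 1 had 2 peaks, of 644 and 208 bp. The peak was widest on day 0 and narrowest on day 9. A peak within 1000 bp of the start in all 7 libraries was found for 38.5% of protein-coding genes.

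The region 17.5 kb downstream of the *Klf4* start varied less in width than the promoter. It had peaks of 655 (day 0), 672 (day 1), 702 (day 2), 610 (day 3), 724 (day 6), 549 (day 9) and 658 bp (ESCs), and its middle held 2 Klf motifs (GGGNGTGG, in 14.7% of windows around all merged regions at least once). The *Klf4* window holds no other protein-coding gene.

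Farther downstream *Klf4* had 3 regions open in ESCs alone. They lay 54.9 kb (657 bp, chr4:55477271-55477927), 56.8 kb (474 bp, chr4:55475417-55475890) and 68.1 kb (583 bp, chr4:55464093-55464675) from the start, with no peak there in any of the 6 MEF-derived libraries. A cluster of distal enhancers downstream of *Klf4* is known from ESCs. Each of the 3 peaks was wider than 300 bp, whereas 3 of the 4 ESC peaks at *Pou5f1* without a day 0 counterpart spanned 200 or 201 bp, at the smallest width in the files. The 54.9 kb region held an Esrrb motif (TGACCTTG) and a Klf motif (CCACTCCC) within its central 300 bp. The 56.8 kb region held 5 matches to the short Sox motif CNTTGTN, which 42.0% of windows around ESC peaks hold at least once. Around regions open in ESCs and not on day 0 the Sox share was 52.7%. Of all protein-coding genes, 26.0% had 3 or more regions open in ESCs and not on day 0.

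On day 0 *Klf4* had 8 open regions, and 5 of them were open in no other library. In the genome, 24930 of the 58856 day 0 regions were open on day 0 alone. The 5 at *Klf4* lay 46.7, 46.4 and 9.3 kb upstream and 43.7 and 80.7 kb downstream, and the one at 9.3 kb was 735 bp wide. On days 1, 2, 3, 6 and 9 the locus had 5, 3, 5, 3 and 3 open regions. The region 101.8 kb from the start (chr4:55430393-55430874) was open on day 1 (401 bp), day 2 (200 bp) and day 3 (200 bp) and in no other library, and its middle held 2 Esrrb motifs. Further regions of doxycycline days alone lay 31.9 and 31.5 kb upstream (day 3) and 101.1 kb downstream (day 1).

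Inside *Klf4*, peaks of 269 (day 0), 420 (day 1), 463 (day 6) and 288 bp (day 9) lay wholly within the longest coding exon (chr4:55529999-55530983). Days 2 and 3 and ESCs had none. Here too, reads from the cassette cannot be told apart from the endogenous exon. Of the 58 regions, 3 (5.17%) lay by at least 50% in coding exons, the first exon of *Pou5f1*, the *Sox2* exon and this *Klf4* exon, against 1.38% of all merged regions.

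**Figure D4:**
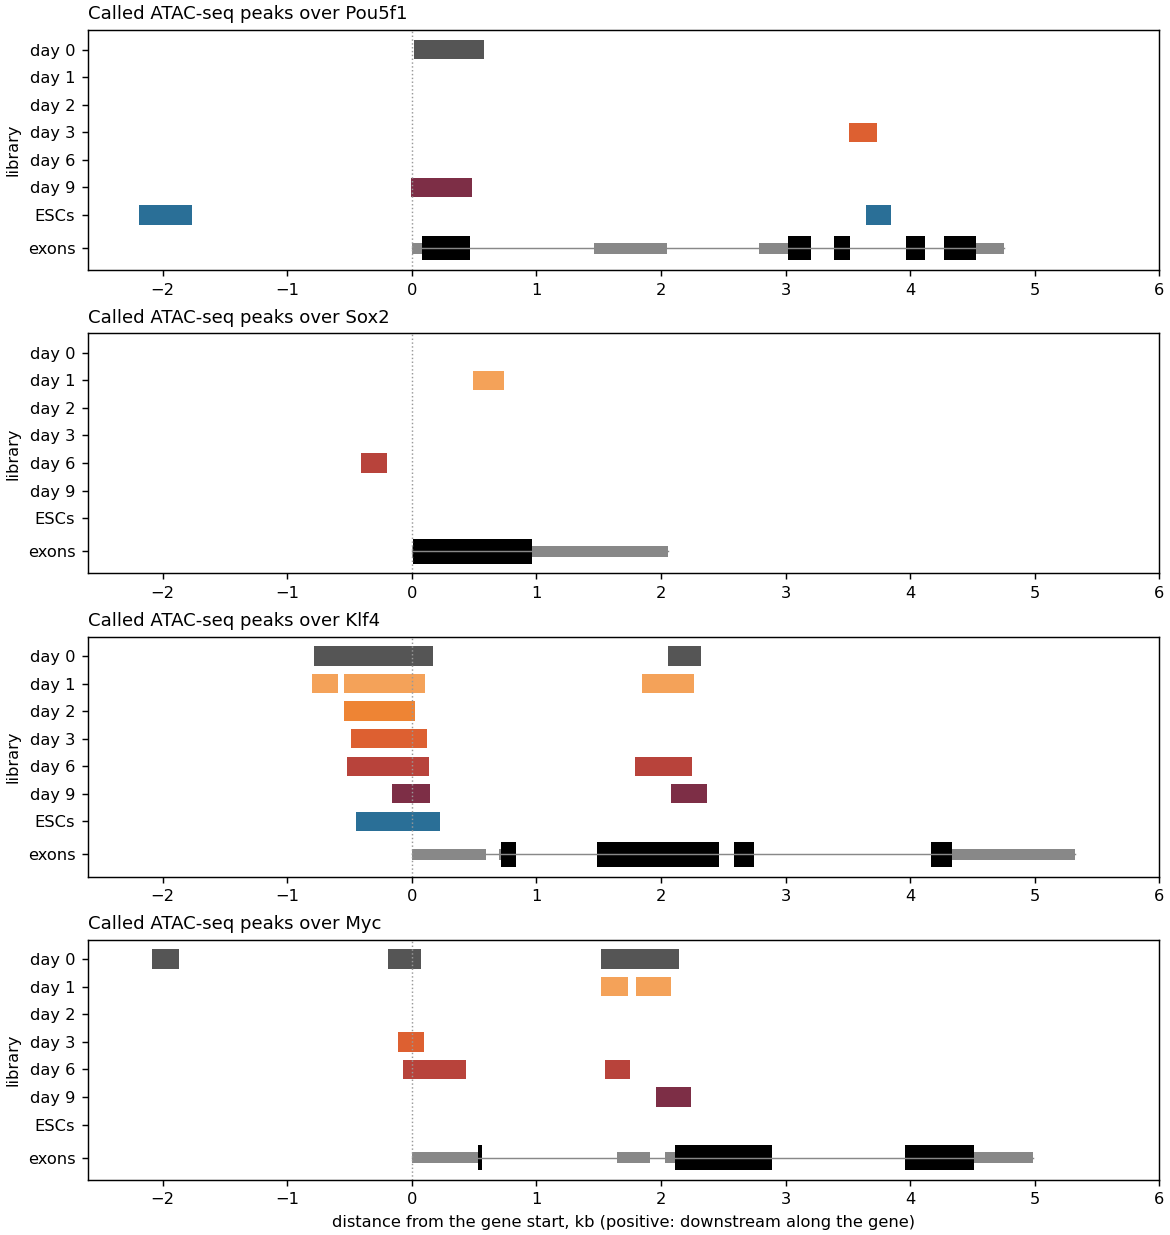
Called peaks from 2.6 kb upstream to 6 kb downstream of each start, by library, with exons below (black for coding sequence, grey for the rest). Peaks over the *Klf4* start stand in all libraries, while those over black blocks are the day 0 and day 9 peaks of *Pou5f1*, the day 1 peak of *Sox2*, 4 peaks of *Klf4* and the day 0 and day 9 peaks of *Myc*, apart from 15 bp of the day 3 peak of *Pou5f1*.

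*Myc* (ENSMUSG00000022346.15, chr15:61985391-61990374, plus strand) encodes the E-box factor that drives growth and division, and had the most day 0 regions of the 4 loci. Its open regions numbered 10 (day 0), 7 (day 1), 2 (day 2), 6 (day 3), 7 (day 6), 3 (day 9) and 3 (ESCs). Day 6 was as high as day 1. Among protein-coding genes, 46.8% had 10 or more regions open on day 0 in their window, where the median was 9. All but 1 of the regions outside the gene lay downstream, where the noncoding gene *Pvt1* lies, and none was farther upstream than 2.0 kb.

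The *Myc* start had a peak of 266 (day 0), 213 (day 3) and 504 bp (day 6), and none on days 1, 2 and 9 or in ESCs. Of protein-coding genes, 46.0% had a promoter peak in ESCs and 11.3% had one on day 0 and none in ESCs. A second region inside the gene (chr15:61986906-61987628) had peaks of 629 bp (day 0), 224 and 281 bp (day 1), 206 bp (day 6) and 280 bp (day 9). It lies near an internal start of *Myc* and reaches the coding part of the second exon, which made up 4.61% of the day 0 peak and 43.6% of the day 9 peak, so that cassette reads cannot be told apart for that portion. The day 1 and day 6 peaks held no coding sequence.

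Downstream of *Myc*, 4 regions open on day 0 were also open on some doxycycline days and had no peak in ESCs. The one 58.6 kb downstream had peaks of 584 bp (day 0), 232 bp (day 1), 247 bp (day 3), 200 and 274 bp (day 6) and 200 bp (day 9). The one at 43.2 kb had 511 (day 0), 376 (day 1) and 200 bp (day 3). Days 0, 1, 2 and 6 gave 567, 271, 248 and 412 bp at 52.6 kb, and days 0, 1, 3 and 6 gave 587, 228, 327 and 217 bp at 64.1 kb. In all 4 regions the day 0 peak was the widest, but the regions were chosen for having a day 0 peak. A narrowing after day 0 was not tested. A region open on doxycycline days alone lay between them, 53.8 kb downstream (chr15:62039004-62039456), with 200 (day 1), 453 (day 3) and 234 bp (day 6). Regions open on day 0 alone lay 2.0 kb upstream and 14.5 and 71.1 kb downstream.

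ESCs had 2 regions of their own at *Myc*, a 200-bp peak 25.4 kb downstream (chr15:62010657-62010856) and a 377-bp peak 27.4 kb downstream (chr15:62012598-62012974), both in a stretch where no MEF-derived library had a peak. Among protein-coding genes, 33.4% had 2 or more regions open in ESCs alone. The third ESC region was the one 94.1 kb downstream in *Pvt1*, open in every library, with 638 (day 0), 699 (day 1), 646 (day 2), 706 (day 3), 636 (day 6), 675 (day 9) and 341 bp (ESCs). The ESC peak there was narrower than each of the other 6. This region held 3 AP-1 motifs and an E-box, printed above, whereas the 58.6 kb region held 2 AP-1 motifs.

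AP-1, the Fos and Jun dimer, is known for marking enhancers of fibroblasts. Over the 4 loci, 10 of the 26 regions open on day 0 and not in ESCs (38.5%) held its motif TGANTCA in their central 300 bp. The share around all day 0 peaks was 27.4%, a wider set that includes peaks shared with ESCs. The share over all regions open on day 0 and not in ESCs was not computed. Over all 58 regions the AP-1 motif was in 13 (22.4%) against 22.3% of all merged regions. Of the 17 regions of doxycycline days alone, 1 (5.88%) held it. Of the 11 regions open in ESCs and not on day 0, 1 (9.09%) held the motif, against 8.24% of such regions in the genome. The Klf motif was in 11 of 58 regions (19.0%) against 14.7% of all merged regions, the E-box in 3 (5.17%) against 4.97%, and the CTCF motif (CCANNAG followed directly by GGGGC) in none against 0.884%. The octamer was in 2 (3.45%) against 3.19%. The shares at the 4 loci rest on few regions, and the short Sox motif also lies inside the composite motif. A match describes letters in the reference and is not a bound site.

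The regions open in ESCs and not on day 0 were also followed through the doxycycline course. Of the 11, 2 (18.2%, 2.28–51.8%) had a peak on a doxycycline day, both on day 3, at *Pou5f1* and *Sox2*. The share of such regions in the genome was 24.4%, within that interval. None had a peak on day 9 (0%, 0–28.5%), and the genome-wide 13.8% lies within this interval as well. The 3 such regions of *Klf4* and both of *Myc* had no called peak on any doxycycline day.

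Of the 26 regions open on day 0 and not in ESCs, 14 (53.8%, 33.4–73.4%) had a peak on at least 1 doxycycline day, and the genome-wide share of 46.1% lies within that interval. The day 1 library had a peak at 9 (34.6%) against 31.9% genome-wide, day 2 at 4 (15.4%) against 20.6%, day 3 at 8 (30.8%) against 32.3%, day 6 at 11 (42.3%) against 29.9%, and day 9 at 7 (26.9%) against 19.9%. The 2 regions open on all 5 doxycycline days (7.69% against 11.3% genome-wide) were those 43.8 and 84.8 kb downstream of *Pou5f1*. Of the 17 regions open on doxycycline days alone, 10 (58.8%) were open on 1 day only, against 55.7% genome-wide. Such regions had a peak in 7 cases on day 1 (41.2% against 46.7% genome-wide), in 5 on day 2 (29.4% against 27.9%), in 7 on day 3 (41.2% against 51.1%), in 9 on day 6 (52.9% against 44.1%) and in none on day 9 (0%, 0–19.5%, against 27.1%).

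**Figure D5:**
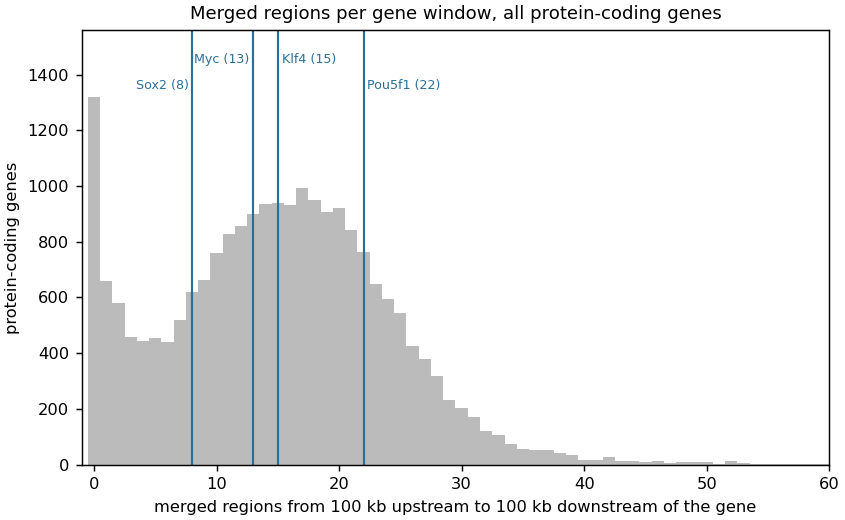
Number of protein-coding genes by the count of merged regions from 100 kb upstream to 100 kb downstream, with the 4 members as lines. *Sox2* (8) sits at the lower quartile, *Myc* (13) and *Klf4* (15) near the median of 15, and *Pou5f1* (22) above the upper quartile of 21, while 14 genes with more than 60 regions lie past the axis.

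By peaks within 1000 bp of the gene start, fewer members had an open promoter in ESCs than on day 0. A peak within 1000 bp of the start was called for 3 (day 0), 2 (day 1), 1 (day 2), 2 (day 3), 3 (day 6), 2 (day 9) and 1 (ESCs) of the 4 members, against 54.5, 50.7, 46.9, 51.4, 52.6, 48.8 and 46.0% of protein-coding genes in the same order. Each member had one in at least 1 library, while 39.8% of protein-coding genes had none in any. Both *Pou5f1* peaks counted, on day 0 and day 9, lay mostly in coding sequence, and the *Sox2* peak on day 1 wholly so. Cassette reads cannot be told apart there. With any annotated transcript start, *Pou5f1* had a promoter peak in 4 libraries, ESCs included. No member had a promoter peak in ESCs and none on day 0, as 2.75% of protein-coding genes did. In the ESC network partners of the members, 5 of 12 had a promoter peak on day 0 and 4 of 12 in ESCs. *Tbx3*, *Klf2* and *Klf5* were open in all 7 libraries, *Zfp42* in ESCs and not on day 0, *Tfcp2l1* and *Utf1* on day 0 and not in ESCs, and 6 of the 12, among them *Nanog* and *Esrrb*, in no library. Around the partners a median of 4 regions (1 to 6) were open in ESCs and not on day 0, and around the members a median of 2.5 (2 to 4), against a median of 1 over all protein-coding genes, and the difference between the lists was not tested.

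Promoters of relatives of the factors were counted in the same way. Of 13 family members, Max included, 10 had a promoter peak on day 0 and 8 in ESCs, against 54.5% and 46.0% of protein-coding genes, and 7 had one in all 7 libraries, against 38.5%. *Sox1* had one in ESCs and not on day 0, *Pou2f3*, *Sox15* and *Mycn* the reverse, and *Sox3* and *Sox17* had none in any library. *Mycn* was open in each MEF-derived library.

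The labels were checked against promoter peaks of cell type markers. Fibroblast markers had a peak for 6 of 8 genes on day 0, 5 or 6 on doxycycline days and 2 in ESCs, and *Col1a1* and *Col1a2* had one in every MEF-derived library and none in ESCs. Of 8 ESC markers, only *Zfp42* had a promoter peak in ESCs, so that defining markers such as *Nanog* and *Fgf4* lacked a called promoter peak there, while 0 to 3 had one in MEF-derived libraries. Of the epithelial markers *Cdh1* was open in ESCs alone, *Krt8* on days 1 and 6 and *Epcam* in no library. No macrophage marker of 3 had a promoter peak in any library, and of 3 endothelial markers *Pecam1* and *Kdr* did on day 0, the latter also in ESCs. The part of other cells in the day 0 regions of the 4 loci was not tested.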

How the data were processed

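The deposited peak lists come from paired-end ATAC-seq reads that the authors cut to 50 bp (Trimmomatic), aligned to mm10 (Bowtie2), stripped of duplicates and thinned to one depth for all libraries (Picard). That depth is not stated. MACS2 was then run on every library by itself, with no model, an extension of 200 bp, a shift of 100 bp and 0.05 as the highest q-value kept. Versions of these tools are not given in the sources used here. The deposited files hold chromosome, start and end per peak, with no score, so read depth and the reads behind a peak are unknown and peak width is the only measure of a peak's size.

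Overlaps were counted at 1 bp or more with Python 3.11.15, after a check against BEDTools 2.31.1 and on simulated data. Genes were taken from GENCODE M21, regions from touching or overlapping peaks of all libraries, and motifs from 300 bp around each region's middle with pysam 0.24.0. A promoter peak lay within 1000 bp of the gene start. Libraries were grouped by time-point. Named regions overlapped a promoter or gene body, had a peak in all 7 libraries, in ESCs and not on day 0, or on 3 or more doxycycline days alone, and further regions named for their width, day 0 peaks or motifs, and the 7 printed sequences, were chosen after their values were seen. The members, gene lists and motifs were chosen with earlier results of these data known.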

Additional observations from a re-analysis of the deposited data

How the results depend on the processing

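No paired analysis was possible because every library is the only one of its time-point. Of 220 values computed under alternatives, 156 moved by 1.5 times or less and 64 by more, and the cause was not tested beyond the fewer or more peaks each alternative leaves. The *Pou5f1* upstream element had a peak in ESCs and in no other library under each of the 4 alternatives run for it. All 4 use the same called peaks, so signal under the threshold is not seen. The paper, from its ATAC-seq tracks, describes this element as accessible after day 3. Counting a region only where 50% of it lay in the window, or leaving out days 2 and 9, moved no value by more than 1.5 times.

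With peaks of at least 300 bp, *Pou5f1* had 10 regions in all, 2 in ESCs, 1 in ESCs and not on day 0, and 3 on doxycycline days alone. *Sox2* then had 4 in all, 2 on day 0 (2 without an ESC peak), 1 in ESCs (1 not on day 0) and 1 on doxycycline days alone, *Klf4* had 5 on day 0 (3 without an ESC peak) and 2 on doxycycline days alone, and *Myc* had 1 in ESCs and not on day 0 and 2 on doxycycline days alone. Promoter peaks were then in 0 libraries for *Sox2* and 1 for *Myc*, and 46.5% of genes had at least as many regions as *Pou5f1*.

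With the 27074 widest peaks of every library, regions numbered 13 at *Pou5f1*, 2 at *Sox2* and 9 at *Klf4*. Day 0 regions were 0 at *Sox2* (0 without an ESC peak), 4 at *Klf4* (2) and 6 at *Myc* (5), and regions of doxycycline days alone were 3 at *Pou5f1*, 0 at *Sox2*, 2 at *Klf4* and 2 at *Myc*. Promoter peaks were in 0 libraries for *Sox2* and 1 for *Myc*.

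With 50 kb on each side, *Pou5f1* had 13 regions, 5 on day 0 (4 without an ESC peak) and 4 on doxycycline days alone, *Sox2* had 3, with 1 on day 0 (1 without an ESC peak) and 0 in ESCs (0 not on day 0), *Klf4* had 3 in ESCs (1 not on day 0) and 2 on doxycycline days alone, and *Myc* had 6 on day 0. With 150 kb, *Sox2* had 15 regions, 8 on day 0 (8 without an ESC peak) and 5 in ESCs (5 not on day 0), *Myc* had 25, with 19 on day 0 (16 without an ESC peak), 7 in ESCs (4 not on day 0) and 2 on doxycycline days alone, *Pou5f1* had 11 on day 0 without an ESC peak, and 39.7% of genes had at least as many regions as *Myc*.

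Merging peaks within 300 bp left *Pou5f1* 6 regions of doxycycline days alone. Leaving out regions that lay by at least 50% in coding exons of the member, an alternative chosen after seeing the data, left *Sox2* 1 such region. A promoter peak at any annotated transcript start was found in 4 libraries for *Pou5f1* and 5 for *Myc*, and one within 2500 bp of the start in 5 for *Myc*. The read depth is not stated, so what it limits was not measured.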
